A study of Mus musculus with 4 samples.

Results

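Sst interneuron nuclei were taken from single-nucleus RNA libraries of the hippocampus and cortex of 5-week-old mice. They were chosen by their measured UMIs, as the nuclei with more than 600 genes and under 5% mitochondrial UMIs that held at least 3 UMIs of Gad1 and Gad2 together, at most 1 UMI of Slc17a7 and at least 5 UMIs of Sst. This rule found 123 nuclei among 36094 kept nuclei, of which 2562 met the Gad1, Gad2 and Slc17a7 limits. A UMI is a molecular tag that counts one captured RNA molecule. There were 2 Sel1L flox/flox libraries, from mice whose Sel1L alleles carry loxP sites, and 2 Sel1L Syn-Cre libraries, from mice with the same floxed alleles and Cre under the Synapsin I promoter, a promoter active in neurons. Each library was counted as 1 sample. The Sst nuclei numbered 37 and 22 in Sel1L flox/flox replicates 1 and 2, and 27 and 37 in Sel1L Syn-Cre replicates 1 and 2. Their summed counts were 594512, 302820, 381040 and 473646 UMIs in that order, and the median nucleus held 13791, 12620, 14004 and 10819 UMIs. No cell barcode of an Sst nucleus occurred in 2 libraries.

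Sst interneurons are GABAergic neurons of the cortex and hippocampus that release the peptide somatostatin and contact mostly the dendrites of other neurons. SEL1L is the adaptor of the ubiquitin ligase HRD1, encoded by Syvn1, in the complex that moves misfolded proteins out of the endoplasmic reticulum (ER) for degradation, a process called ER-associated degradation (ERAD). When misfolded proteins build up, the unfolded protein response (UPR) raises ER chaperones through ATF6 and XBP1. ATF4, acting downstream of PERK, raises genes of amino acid import, amino acid synthesis and tRNA charging.

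The labelled cell type was checked against genes that the rule did not use. Grin3a, which encodes a glutamate receptor subunit, had a UMI in 117 of 123 Sst nuclei (95.1%) and in 40.6% of the 2439 other Gad1/Gad2 nuclei. For Elfn1, a postsynaptic adhesion protein, the shares were 70.7% and 21.2%, for Lypd6 48.0% and 14.4%, and for Crhbp, the binding protein of corticotropin-releasing hormone, 45.5% and 11.7%. Sox6 and Satb1, transcription factors of interneurons from the medial ganglionic eminence, were found in 92.7% and 94.3% of the Sst nuclei. Pvalb and Vip, which mark other interneurons, each had a UMI in 3.25%, and Lamp5 in 1.63%. The 42 nuclei with 4 Sst UMIs had Grin3a in 92.9% and Elfn1 in 73.8%, and the 26 with 5 Sst UMIs had them in 88.5% and 53.8%. The rule therefore took the nuclei with the most Sst RNA and left out others that held these markers. As a background level, 1 Sst UMI or more was found in 3.47% to 4.99% of excitatory nuclei and 5 UMIs or more in at most 0.0962%. Their median depth was 15595 to 16549 UMIs, and the source of these Sst UMIs was not tested. Sst itself chose the nuclei, and its level is given without a test. Its median was 7, 6.5, 8 and 8 UMIs per nucleus in the 4 libraries.

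RNA of the Cre transgene was present in Sel1L flox/flox replicate 1, with 17 UMIs in 12 of its 37 Sst nuclei, while replicate 2 had none in its 22. The Syn-Cre libraries held 11 UMIs each, in 9 of 27 and 7 of 37 Sst nuclei. The genotype label of Sel1L flox/flox replicate 1 and its Cre RNA thus do not match, and results without this library are given beside the main ones. Xist RNA, made from the inactive X chromosome, was in no Sst nucleus of replicate 1 of either genotype and in all Sst nuclei of replicate 2 of both, so the mice differed in sex within each genotype and not between genotypes. Malat1, a nuclear noncoding RNA, made up 53181 and 55743 CPM of all UMIs in the flox/flox Sst nuclei and 85566 and 84779 in the Syn-Cre ones. The estimated difference was 0.60 on the log2 scale and did not pass the edgeR test (adjusted p = 0.193). Without flox/flox replicate 1 the difference was 0.57.

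The targeted gene rose. Sel1l (chr12:91806043-91849157, minus strand, GRCm38) had 49 and 32 UMIs in the flox/flox Sst nuclei and 145 and 108 in the Syn-Cre ones, or 90.2, 115, 408 and 237 scaled CPM. CPM stands for UMIs per 1000000 UMIs. Scaled CPM have the UMIs of the tested genes as the total, adjusted by TMM, and all CPM beside a fold change are of this kind. Both Syn-Cre libraries were above both flox/flox libraries, with a log2 change of 1.67 ± 0.29 (SE, edgeR, adjusted p = 0.0291). The change was of similar size but did not pass without the Sst nuclei holding 5 or more oligodendrocyte UMIs (1.59, edgeR adjusted p = 0.0574) or without those scored as doublets (1.70, edgeR adjusted p = 0.063). Without flox/flox replicate 1 the change was 1.47. The libraries tag the 3′ ends of RNA molecules and do not read whether an exon was cut out, so this level does not test the deletion.

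Of 6970 genes tested in the summed counts apart from the genes of the rule, 36, Sel1l among them, were higher and 12 lower in the Syn-Cre Sst nuclei at an adjusted p under 0.05, which is 0.516% and 0.172% of the genes tested, or 0.689% together (edgeR quasi-likelihood test, 2 against 2 libraries). Of the 36 genes that rose, 21 belonged to 9 lists of ERAD, ER folding, UPR, ATF4-linked, amino acid, translocon and ER to Golgi transport genes, which held 141 of the tested genes. The lists were chosen with earlier results of these data known, so this count is a description and no test. The 12 that fell included Slit2 and Unc5c, genes of axon guidance, and the oligodendrocyte gene Mbp. Without Sel1L flox/flox replicate 1, the library with Cre RNA, 35 of the 36 risen genes kept their call and 11 of the 11 fallen genes still tested kept theirs, and 116 genes were higher and 117 lower in all (1.53% and 1.54% of 7604 tested). In that fit the lone flox/flox library is assumed to vary like the Syn-Cre libraries, and leaving out any other library also raised the shares called, to between 0.704% and 1.79% higher and between 0.631% and 1.17% lower. Nothing in the labels says that the libraries came from separate litters or preparations, so the p-values measure the spread between these 4 libraries. A gene could enter the test through the Syn-Cre libraries alone, so medians over the tested genes of a list are a description. Directions are given over all genes of a list with a UMI, beside 50.1% positive among all 17949 such genes. Positive were 19 of 26 ERAD, 29 of 30 ER chaperone and folding, 14 of 15 ATF4-linked and 16 of 20 tRNA synthetase genes. Of peptide processing, neuropeptide and Sst identity genes, 9 of 21, 7 of 12 and 7 of 20 were positive.

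ERAD itself was represented by 26 genes in the files, of which 20 had enough counts to be tested. Sel1l, Derl3 and Herpud1 rose, none fell, and the list's median log2 fold change was 0.48 against -0.0044 over all tested genes. Derl3 (chr10:75893413-75895941) encodes a derlin, a membrane protein of the channel through which ERAD substrates leave the ER. It had no UMI in either flox/flox pool and 39 and 38 UMIs in the Syn-Cre pools, present in 18 of 27 and 19 of 37 nuclei. Against the 3 UMIs over both flox/flox pools that a count of 0 allows, it was at least 26.95-fold higher (edgeR adjusted p = 0.0029). Its relatives Derl1 and Derl2 were detected in all libraries. Derl1 had 35 and 14.4 CPM in flox/flox and 95.6 and 70.3 CPM in Syn-Cre (log2 fold change 1.58 ± 0.39, edgeR adjusted p = 0.107). Its log2 fold change was 2.49 without flox/flox replicate 1. Derl2 differed by 1.34 ± 0.39 (edgeR adjusted p = 0.167). Herpud1, which recruits derlins to the ligase, went from 25.8 and 53.8 CPM to 183 and 158 CPM, a log2 change of 2.21 ± 0.33 (edgeR adjusted p = 0.0227) that did not pass without doublets (2.13, edgeR adjusted p = 0.0593).

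ER chaperones and folding enzymes gave the most calls of any list. Of 26 tested genes 9 rose and none fell, 4 of the 9 also passed without the Sst nuclei holding 5 or more oligodendrocyte UMIs and without doublets, 23 had both Syn-Cre libraries above both flox/flox libraries against 22% of all tested genes, and the median log2 fold change was 1.35. Hspa5, the ER chaperone BiP that binds unfolded proteins and the UPR sensors, had 12 and 4 UMIs in flox/flox and 105 and 68 in Syn-Cre, or 22.1, 14.4, 295 and 149 CPM. The groups did not overlap, and the log2 fold change was 3.51 ± 0.43 (edgeR adjusted p = 0.00591). Dnajc3, a BiP cochaperone that also inhibits PERK, went from 47.8 and 32.3 CPM to 326 and 261 CPM, a change of 2.80 ± 0.28 (edgeR adjusted p = 0.0029). Hsp90b1, the ER member of the HSP90 family, went from 66.2 and 75.4 to 304 and 204 CPM, a change of 1.85 ± 0.28 (edgeR adjusted p = 0.022). The protein disulfide isomerases Pdia3, Pdia5 and Pdia6 also rose. Pdia6 had 38.6 and 32.3 CPM in flox/flox and 135 and 108 CPM in Syn-Cre. Pdia5 had 3 UMIs in all in the flox/flox pools and 39 in the Syn-Cre pools, a ratio of 13.6 with a counting interval of 4.34 to 69.0. Hyou1, a large chaperone that exchanges the nucleotide of BiP, went from 22.1 and 14.4 to 143 and 70.3 CPM, and the oxidase Ero1lb from 68.1 and 46.7 to 188 and 178 CPM. Dnajb9, a BiP cochaperone, had 11 and 17.9 CPM in flox/flox and 59.0 and 68.1 CPM in Syn-Cre. In every one of these 9 genes the lowest Syn-Cre library was above the highest flox/flox library, as the plot of CPM by library shows for 5 of the 9.

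**Figure D1:**
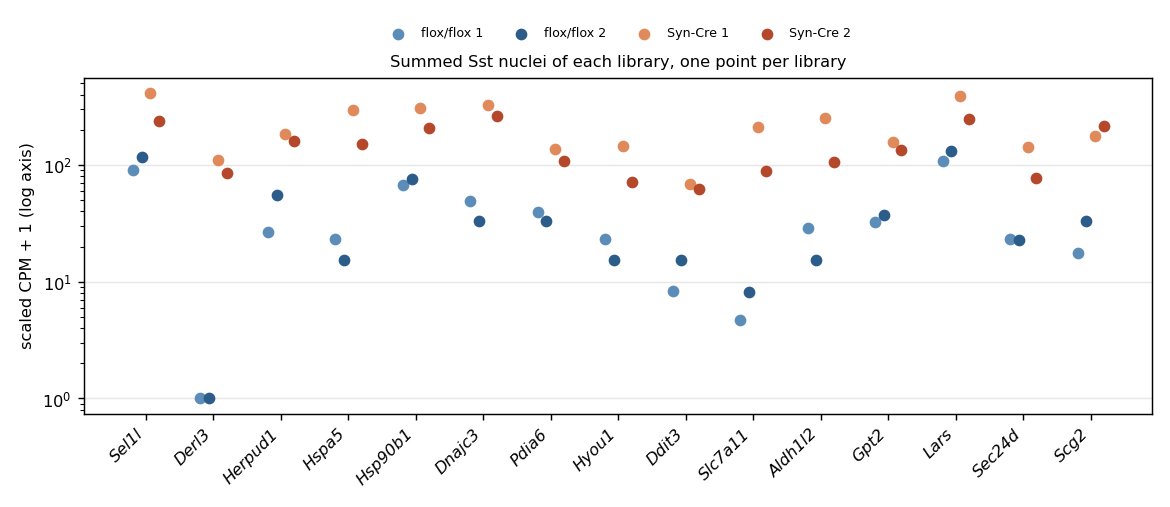
Scaled CPM plus 1 on a log axis for 15 genes in the summed Sst nuclei of each library, 1 point per library, blue for Sel1L flox/flox and orange to red for Sel1L Syn-Cre. Both Syn-Cre points lie above both flox/flox points for each gene shown, and Derl3 lies at 0 CPM in both flox/flox libraries.

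XBP1 and ATF6 act through the ER stress response element, a CCAAT box and a CCACG box 9 bases apart. The promoter sequences of the genes that rose were therefore searched for it. RefSeq promoters (GRCm38.p6, the 250 bases before the transcription start, both strands) were found by symbol for 27 of the 36 risen genes. CCAAT followed by CCACG after 9 bases was present in 5 of them (18.5%), Derl3, Dnajc3, Hsp90b1, Hspa5 and Pdia6, and in 35 of all 27025 promoters (0.130%). The related element, ATTGG followed by CCACG after 1 base, was present in Herpud1 alone among the risen genes and in 10 of all promoters (0.037%). TGATGNAA, a form of the site read by ATF4 and its partners, was present in Herpud1 and Slc7a11 (7.41%) and in 3.91% of all promoters, and it did not overlap the other elements in the stretches printed. A match is a stretch of letters and not a measured binding site. The stretches around the first 2 elements are shown, 5′ to 3′ on the strand of the gene, because these genes include the chaperones with the clearest rises; capitals mark the element, read on either strand.
Hspa5, chr2:34772020-34772048, plus strand: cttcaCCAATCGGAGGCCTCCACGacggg
Dnajc3, chr14:118937817-118937855, plus strand: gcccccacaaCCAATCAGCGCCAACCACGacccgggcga
Pdia6, chr12:17266481-17266519, plus strand: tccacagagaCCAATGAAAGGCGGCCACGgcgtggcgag
Derl3, chr10:75893232-75893270, plus strand: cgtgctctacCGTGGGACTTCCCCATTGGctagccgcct
Herpud1, chr8:94386367-94386397, plus strand: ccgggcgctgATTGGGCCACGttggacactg
Hsp90b1, chr10:86705523-86705666, minus strand: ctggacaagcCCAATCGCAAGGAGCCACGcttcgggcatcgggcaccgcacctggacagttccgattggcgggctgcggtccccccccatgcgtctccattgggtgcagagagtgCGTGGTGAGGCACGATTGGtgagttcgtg
Hsp90b1 held 2 copies, and Derl3 held its copy on the opposite strand.

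Among UPR sensors and transcription factors, 9 genes were tested and Ddit3 alone rose with all 4 libraries. Ddit3, the stress transcription factor CHOP, went from 7.36 and 14.4 CPM to 67.5 and 61.5 CPM (log2 fold change 2.68 ± 0.45, edgeR adjusted p = 0.0262), and it overlaps Mars on the opposite strand. It did not pass without the Sst nuclei holding 5 or more oligodendrocyte UMIs (edgeR adjusted p = 0.0534) or without doublets (edgeR adjusted p = 0.0685). Xbp1 had 25.8 and 14.4 CPM in flox/flox and 110 and 54.9 CPM in Syn-Cre, a difference of 1.91 ± 0.45 that did not pass (edgeR adjusted p = 0.0947). Eif2ak3, which encodes PERK, had 36.8 and 25.1 against 90.0 and 79.1 CPM (edgeR adjusted p = 0.0947). Atf4 RNA, whose protein is controlled mainly at translation, had 29.4 and 10.8 against 36.6 and 39.5 CPM (edgeR adjusted p = 0.573). Of the 16 genes of this list with a UMI, 14 had a positive log2 fold change. Without flox/flox replicate 1 the log2 fold change was 2.46 for Xbp1, 1.73 for Eif2ak3 and 1.88 for Creb3l2, an ER-bound transcription factor.

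A few genes of amino acid handling passed the test, all of them higher in Syn-Cre. Of 11 tested amino acid transporters, Slc7a11 and Slc38a2 rose, the median log2 fold change was 1.13, and 11 of 12 with a UMI were positive. Slc38a2 did not pass without doublets (edgeR adjusted p = 0.0591). Slc7a11, the cystine transporter xCT, had 2 UMIs in each flox/flox pool and 74 and 40 in the Syn-Cre pools, a change of 4.81 ± 0.62 (edgeR adjusted p = 0.00955). Slc7a5, a carrier of large neutral amino acids, had 20.2 and 10.8 against 81.5 and 61.5 CPM and narrowly missed the threshold (edgeR adjusted p = 0.0514). Of 12 tested genes of serine, folate, methionine and amino acid synthesis, Aldh1l2 rose, and 18 of the 22 with a UMI had a positive log2 fold change. Aldh1l2, the mitochondrial enzyme that oxidises formyl-tetrahydrofolate, went from 27.6 and 14.4 to 253 and 105 CPM, a change of 2.97 ± 0.49 (edgeR adjusted p = 0.0262) that did not pass without doublets (3.0, edgeR adjusted p = 0.0567). Below the threshold, Phgdh, the first enzyme of serine synthesis, had 2 and 0 UMIs in flox/flox and 12 and 12 in Syn-Cre (edgeR adjusted p = 0.101). Asns, asparagine synthetase, had 23.9 and 35.9 against 95.6 and 72.5 CPM (edgeR adjusted p = 0.085), and Mthfd2, a mitochondrial folate enzyme, had 22.1 and 43.1 against 84.4 and 74.7 CPM (edgeR adjusted p = 0.124). Gpt2, the mitochondrial alanine transaminase, rose from 31.3 and 35.9 to 155 and 132 CPM (edgeR adjusted p = 0.0137). Of 18 tested cytosolic aminoacyl-tRNA synthetases, which charge tRNAs, Lars rose from 107 and 129 to 388 and 246 CPM (edgeR adjusted p = 0.0414), and the list's median log2 fold change was 0.89. Lars did not pass without the Sst nuclei holding 5 or more oligodendrocyte UMIs (edgeR adjusted p = 0.0605) or without doublets (edgeR adjusted p = 0.0662). With any 1 library left out, 2 to 6 transporters, 1 to 4 synthesis genes and 1 to 5 synthetases rose and none fell, and without flox/flox replicate 1 the numbers were 3, 1 and 4.

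A few genes of the translocon and of transport from the ER also rose, and none of the genes Ostc, Sec24d and Stx5a passed without the Sst nuclei holding 5 or more oligodendrocyte UMIs (edgeR adjusted p = 0.0502 for each). Ostc, a subunit of the oligosaccharyltransferase that puts glycans on proteins entering the ER, rose from 12.9 and 25.1 to 112 and 76.9 CPM (edgeR adjusted p = 0.0262). It was the single call among 19 tested genes of the translocon, signal peptidase and oligosaccharyltransferase, with a median log2 fold change of 1.13, and 23 of 25 with a UMI were positive. Among 23 tested genes of ER to Golgi transport, Sec24d, a coat protein of vesicles that leave the ER, and Stx5a, a SNARE of the same step, rose, the median was 0.68, and 29 of 31 with a UMI were positive. Sec24d went from 22.1 and 21.5 to 141 and 76.9 CPM. Without flox/flox replicate 1, 4 of 21 tested genes of the first list and 6 of 26 of the second rose. None of 14 tested genes of ER-phagy, autophagy and lysosomes and none of 9 tested cytosolic heat shock genes passed the test. Their medians were 0.12 and -0.037, and 12 of 20 and 4 of 13 genes with a UMI were positive. Of all tested genes 0.689% passed, so the lack of calls in lists of this size does not set them apart. Hspa8, a main cytosolic chaperone, had 57 and 61.0 CPM in flox/flox and 64.7 and 87.9 CPM in Syn-Cre (edgeR adjusted p = 0.654). The plot of fold changes by list shows the ER, amino acid and transport lists to the right of 0 and the heat shock list around it.

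**Figure D2:**
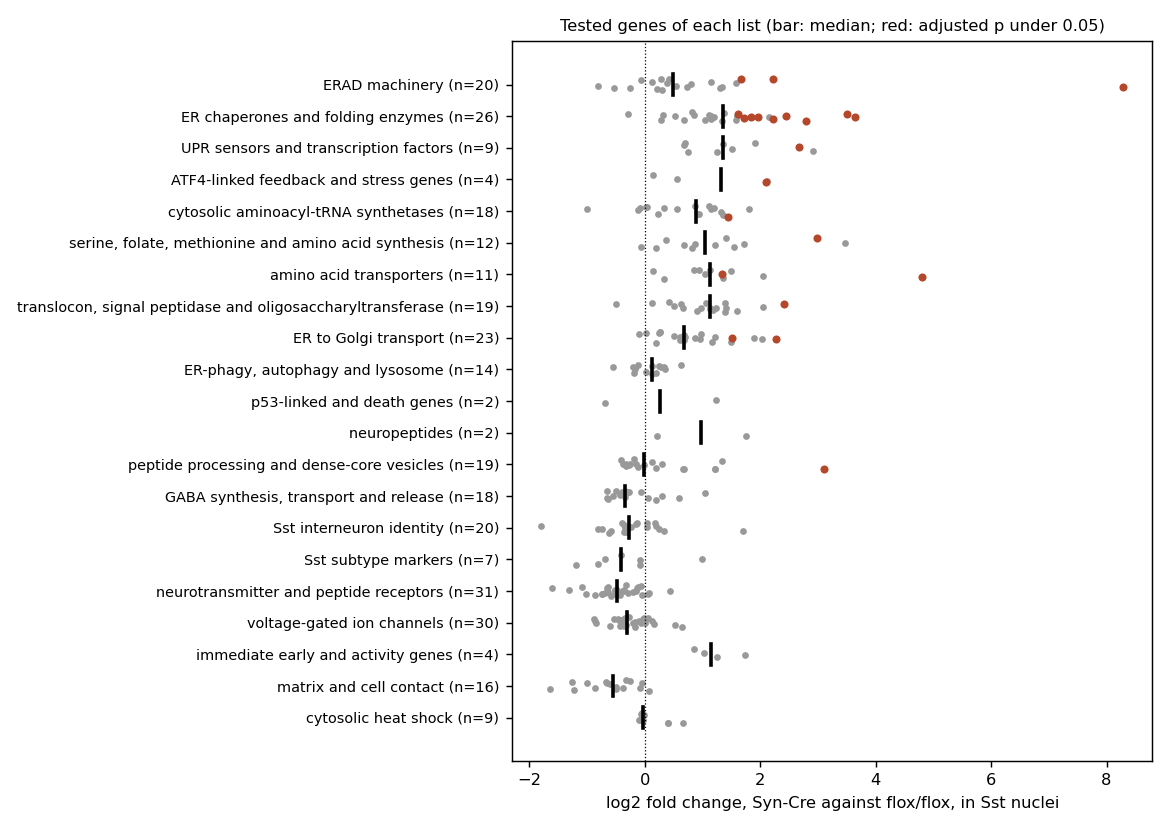
Each point is the log2 fold change of 1 tested gene in Sst nuclei, Sel1L Syn-Cre against Sel1L flox/flox, by gene list (21 lists), with the list's median as a black bar and genes with an edgeR adjusted p under 0.05 in red. The 9 lists at the top have medians between 0.48 and 1.36, while the lists of GABA, receptor, channel and matrix genes have medians below 0; the Derl3 point at 8.29 is a fitted value against 0 UMIs and no bound.

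The rise was seen nucleus by nucleus and not only in the sums. The UMIs of 57 ERAD and ER folding genes were added up in each nucleus and expressed per 10000 UMIs. Sst nuclei of the flox/flox libraries had medians of 21.9 and 21.7, with ranges of 11 to 32.4 and 16.6 to 32.7. In the Syn-Cre libraries the medians were 54.8 and 45.6, with ranges of 23.9 to 78.0 and 25.8 to 75.9. Of the Syn-Cre Sst nuclei, 26 of 27 and 34 of 37 lay above 30.0, the 95th percentile of the flox/flox Sst nuclei, and none lay below the flox/flox median. With nuclei thinned to 4000 UMIs, 26 of 27 and 30 of 37 lay above the corresponding value of 32.8, and 0 and 1 lay below the flox/flox median. Nearly every Syn-Cre Sst nucleus thus had a raised sum, while Cre RNA was found in 9 of 27 and 7 of 37. In flox/flox replicate 1, where the median sum was 21.9, Cre RNA was found in 12 of 37. A second sum, over 69 ATF4-linked, amino acid synthesis, transporter and tRNA synthetase genes, had medians of 19.7 and 22.5 in flox/flox and 47.9 and 39.4 in Syn-Cre. For this sum 26 of 27 and 28 of 37 Syn-Cre nuclei lay above 30.4, the flox/flox 95th percentile, and 1 and 4 lay below the flox/flox median. With nuclei thinned to 4000 UMIs, 24 of 27 and 20 of 37 lay above 32.8. In Syn-Cre replicate 2 the nuclei with a Derl3 UMI had a median ER sum of 53 and those without 37.8, while in replicate 1 the medians were 53 and 55.8; the genes of the sum include Derl3, and these values are a description.

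**Figure D3:**
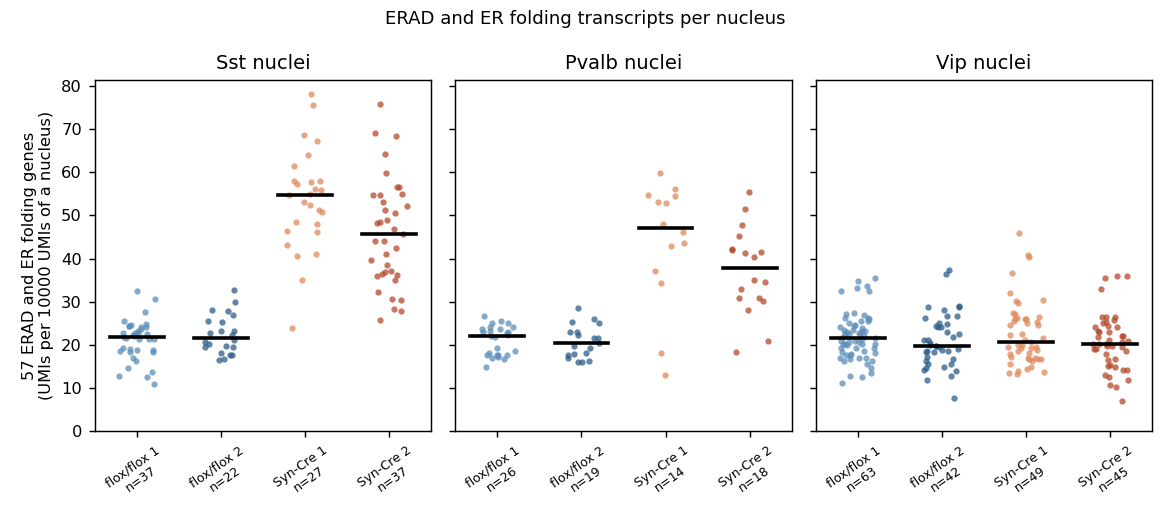
UMIs of 57 ERAD and ER folding genes per 10000 UMIs, 1 point per nucleus, for Sst, Pvalb and Vip nuclei of each library, with medians as black bars. Sst nuclei have medians of 21.9 and 21.7 in flox/flox and 54.8 and 45.6 in Syn-Cre, Pvalb nuclei 22.2, 20.5, 47.1 and 37.7, and Vip nuclei stay between 19.9 and 21.6.

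The Sst nuclei are a mixture of subtypes, and clustering them gave 7 groups of 11 to 25 nuclei. One group of 13 nuclei led by Nos1 held 4 of 4 Sst Chodl markers and is called Sst Chodl-like, after the long-range projecting Sst cells that make nitric oxide. A group of 24 nuclei held 4 of 4 Sst Calb2 markers and is called Sst Calb2-like. A marker counted as held if it was higher in the group than in the other Sst nuclei, even where few nuclei had a UMI of it. Chodl had a UMI in 4 and Calb2 in 10 of all 123 Sst nuclei. Most nuclei of each named group thus had no UMI of the gene in its name. The other 5 groups had too few markers of one subtype to be named. In each of the 7 groups the median ER sum was higher in the Syn-Cre nuclei than in the flox/flox nuclei. It was 21.6 in 8 flox/flox and 36.0 in 5 Syn-Cre nuclei of the Sst Chodl-like group, the lowest Syn-Cre median of the 7, and 18.9 and 48.4 in 13 and 11 nuclei of the Sst Calb2-like group. The 5 Syn-Cre nuclei of the Sst Chodl-like group all came from replicate 2. Nuclei of a group share libraries, and no test was made.

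Scg2, the precursor of secretogranin II in dense-core vesicles, was among the clearest rises outside the ER. It had 9 UMIs in each flox/flox pool and 62 and 97 in the Syn-Cre pools, or 16.6, 32.3, 174 and 213 CPM, a log2 change of 3.11 ± 0.34 (edgeR adjusted p = 0.0029). It was the single call among 19 tested genes of peptide processing and dense-core vesicles, whose median was -0.013, and 1 or 2 genes of this list passed with any 1 library left out. Of 14 neuropeptide genes other than Sst, Vgf and Npy had enough UMIs to test. Vgf, a secreted peptide precursor, had 35 and 32.3 CPM in flox/flox and 84.4 and 143 CPM in Syn-Cre (edgeR adjusted p = 0.0518), and Npy, neuropeptide Y, had 68.1 and 118 against 73.1 and 132 CPM (edgeR adjusted p = 0.867). Without flox/flox replicate 1 the log2 fold change of Vgf was 1.83. Cort, which encodes the somatostatin relative cortistatin, had 5 and 3 UMIs in flox/flox and 5 and 45 in Syn-Cre. It was thus high in Syn-Cre replicate 2 alone. Per1, a clock gene, rose from 16.6 and 17.9 to 67.5 and 94.5 CPM (edgeR adjusted p = 0.0262), Plk2, a kinase induced by activity and stress, from 25.8 and 25.1 to 90.0 and 85.7 CPM, and Kcnt2, a sodium-activated potassium channel, from 151 and 122 to 337 and 371 CPM. Without the Sst nuclei holding 5 or more oligodendrocyte UMIs none of these 3 passed (edgeR adjusted p = 0.0502, 0.0769 and 0.0534 for Per1, Plk2 and Kcnt2), nor did they without doublets (edgeR adjusted p = 0.0622, 0.0735 and 0.0777). None of 4 tested immediate early and activity genes passed, and 15 of 17 with a UMI were positive. Without flox/flox replicate 1 the log2 fold change of Homer1 was 1.10. Homer1 and Nr4a1 were high in 1 library, Syn-Cre replicate 2, with 367 CPM against 90.2 to 115 CPM and 121 CPM against 20.2 to 36.6 CPM. The gene 1700016P03Rik, annotated as a processed transcript, rose from 27.6 and 10.8 to 202 and 340 CPM (log2 fold change 3.67 ± 0.40, edgeR adjusted p = 0.0029). It overlaps Ovca2 on the opposite strand.

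Among the 12 genes that fell, St18 and Mbp are genes of oligodendrocytes, and oligodendrocyte markers as a set, Mbp included, were also lower in the Syn-Cre Sst nuclei. All 8 oligodendrocyte markers together made up 505 and 327 CPM of all UMIs in the flox/flox Sst nuclei and 60.4 and 61.2 in the Syn-Cre ones, with Mbp the most abundant in each library. In Syn-Cre replicate 1 Mobp and Mal were at 0, and in replicate 2 Mag, Mobp, Mal and Cldn11. In flox/flox replicates 1 and 2, 6 and 2 nuclei with 5 or more oligodendrocyte UMIs held 87.7% and 75.8% of these UMIs, and 3 and 2 of those nuclei were scored as doublets; the Syn-Cre libraries had 0 and 1 such nuclei. These 9 nuclei were chosen by markers that include Mbp, so leaving them out lowers Mbp in flox/flox by construction. Its log2 fold change without them, 0.23, is therefore no test. Without them Dock10 stood at -0.85 (edgeR adjusted p = 0.431) and Gm32647, a noncoding gene, at -0.69 (edgeR adjusted p = 0.621), while St18 and Prr5l had too few UMIs to test. With all nuclei, St18 had 91 and 31 UMIs in flox/flox and 1 and 1 in Syn-Cre, and Prr5l, a regulator of TORC2 signalling, 45 and 9 against none. With the 5, 3, 2 and 1 Sst nuclei scored as doublets left out, 9 genes rose (0.137%), which were Dnajc3, Derl3, 1700016P03Rik, Scg2, Hspa5, Slc7a11, Gpt2, Hsp90b1 and Pdia3, and 0 fell (0%) in edgeR, with 800 genes at an unadjusted p under 0.05, and the 36 risen genes all kept their direction.

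Zfpm2, Cntnap5c, Slit2, Plxdc2, Unc5c and Prkd1 fell by similar amounts with and without those nuclei. Zfpm2, a cofactor of GATA factors, had 620 and 481 CPM in flox/flox and 200 and 187 CPM in Syn-Cre, and its log2 fold change of -1.52 ± 0.23 (edgeR adjusted p = 0.022) became -1.34 (edgeR adjusted p = 0.0452). Cntnap5c, a neurexin-like adhesion protein, had 629 and 420 against 172 and 206 CPM, with -1.48 ± 0.25 (edgeR adjusted p = 0.0264) and -1.37 (edgeR adjusted p = 0.0452). These were the 2 falls that kept their call, 0.0292% of the genes tested without those nuclei. Unc5c, a netrin receptor, had 491 and 822 against 172 and 239 CPM, and its change of -1.66 became -1.46 (edgeR adjusted p = 0.073). Slit2, a secreted axon guidance cue, had 109 and 194 against 33.7 and 22 CPM, and its change of -2.41 became -2.23 (edgeR adjusted p = 0.184). Prkd1, a protein kinase of the Golgi, went from -2.04 to -2.07 (edgeR adjusted p = 0.0502), and Plxdc2 from -2.27 to -2.06 (edgeR adjusted p = 0.071). Leaving the 9 nuclei out also lowered the number of risen genes from 36 to 13 (0.190% of those tested), although all 36 kept their direction; Derl3, Dnajc3, Hspa5, Hsp90b1, Herpud1, Pdia3, Slc7a11, Slc38a2, Aldh1l2, Gpt2 and Scg2 were among the 13. The median ER sum per nucleus was 21.5, 21.7, 54.8 and 46.2 without those nuclei.

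**Figure D4:**
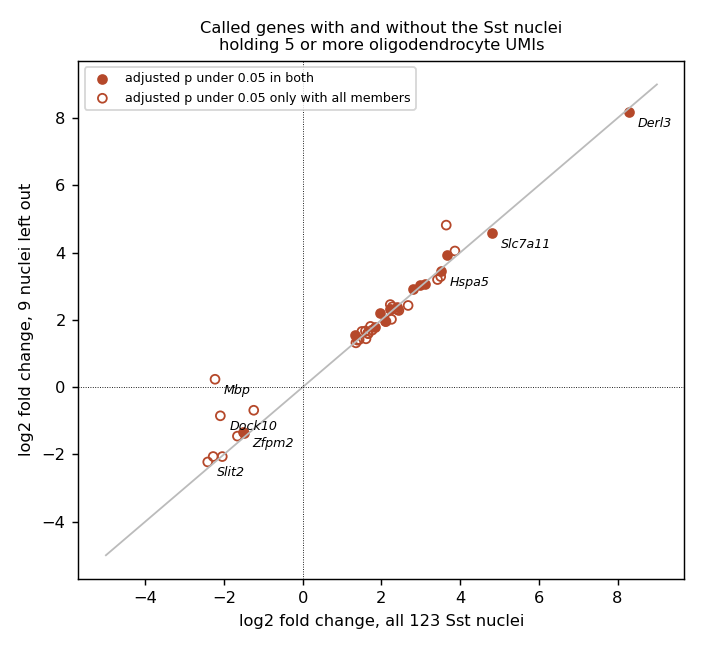
Log2 fold change (Sel1L Syn-Cre against Sel1L flox/flox) of 45 genes called with all 123 Sst nuclei (horizontal axis) and after 9 nuclei with 5 or more oligodendrocyte UMIs were left out (vertical axis), filled where the edgeR adjusted p was under 0.05 in both (15 genes). The grey line marks equal values; the risen genes lie along it, and Mbp and Dock10 lie above it.

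No gene of the neurons' own identity passed the test with all 4 libraries, while some did with 1 library left out. Of 20 tested genes of Sst interneuron identity 8 had both Syn-Cre libraries below both flox/flox libraries against 21.2% of all tested genes, and the median log2 fold change was -0.28. Elfn1 had 219 and 158 against 152 and 141 CPM (edgeR adjusted p = 0.554), Grin3a 1080.2 and 883 against 745 and 833 CPM (edgeR adjusted p = 0.586), and Lypd6 123 and 93.3 against 112 and 87.9 CPM (edgeR adjusted p = 0.887). Crhbp had 35 and 61.0 CPM in flox/flox and 95.6 and 202 CPM in Syn-Cre (log2 fold change 1.71 ± 0.40, edgeR adjusted p = 0.0869). Without flox/flox replicate 1 the log2 fold change was 1.31 for Crhbp, -0.86 for Nxph1, a neurexin ligand, and -0.82 for Erbb4, a neuregulin receptor. In that fit the lone flox/flox library is assumed to vary like the Syn-Cre libraries, so no p-value is given here. Of 31 tested neurotransmitter and peptide receptors none passed with all 4 libraries, with a median log2 fold change of -0.48, and 34 of 42 with a UMI were negative. Grm5, a metabotropic glutamate receptor, had 2188 and 3076 against 1265 and 1314 CPM (edgeR adjusted p = 0.0722). Of the genes with a UMI, 22 of 24 of matrix and cell contact, 28 of 33 voltage-gated ion channels and 13 of 20 of GABA synthesis, transport and release were negative. Their tested members, 16, 30 and 18 genes, had medians of -0.55, -0.30 and -0.34 and no call with all 4 libraries. Without flox/flox replicate 1 the log2 fold change was -1.25 for Grm5 and -0.93 for Gria4, a glutamate receptor subunit. Among genes of matrix and cell contact it was -2.04 for the collagen Col25a1, and -0.93 and -0.90 for the adhesion genes Cntn5 and Cdh9. These genes were chosen for their values in that fit, which has 1 flox/flox library. The long neuronal genes of these lists are counted in the same nuclei in which Malat1 took a larger share of UMIs in Syn-Cre, and the part of that share in these values was not tested.

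The response was then compared with that of other interneurons in the same libraries. Pvalb nuclei (26, 19, 14 and 18 in the 4 libraries) and Vip nuclei (63, 42, 49 and 45) met the same Gad1, Gad2 and Slc17a7 limits, held 3 or more UMIs of their own marker and at most 2 of the other, and had at most 4 Sst UMIs. The difference of the responses was tested by an interaction term with library as a block. Against Pvalb nuclei no gene of 7191 passed (0%), with 382 genes at an unadjusted p under 0.05 in edgeR and 47 in DESeq2, and leaving out 1 library gave 1 to 14 genes with a larger and 0 to 5 with a smaller log2 fold change in Sst nuclei. A p that misses the threshold does not show that the responses were alike, and the median ER sums of both are given below. Against Vip nuclei 16 of 8058 genes passed (0.199%), 10 with a larger and 6 with a smaller log2 fold change in Sst nuclei, and DESeq2 called none, with 99 at an unadjusted p under 0.05.

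Sel1l gave the lowest p in the comparison with Vip nuclei. In Vip nuclei it had 126 and 97.7 CPM in flox/flox and 87.5 and 54.4 CPM in Syn-Cre, so that the Syn-Cre libraries were below the flox/flox ones there, and its log2 fold change was larger in Sst than in Vip nuclei by 2.35 ± 0.35 (edgeR adjusted p = 0.00706). Aldh1l2 had 38.3 and 27.6 against 6.73 and 17.3 CPM in Vip nuclei, a difference of 4.44 ± 0.66 (edgeR adjusted p = 0.00706), and Gpt2 27.4 and 42.6 against 15.7 and 19.8 CPM, a difference of 3.0 ± 0.53 (edgeR adjusted p = 0.0214). Scg2 and Kcnt2 were also among the genes with a larger change in Sst nuclei, by 2.44 and 1.69. Prkd1 (-2.46), Kirrel3 (-1.67), an adhesion molecule, and Dock10 (-1.92) had lower values in Sst nuclei. Hspa5 (difference 2.64 ± 0.55, edgeR adjusted p = 0.0543) and Dnajc3 (2.11 ± 0.45, edgeR adjusted p = 0.0559) narrowly missed the threshold. The ERAD, ER folding, UPR, amino acid, translocon and transport lists had 104 genes measured in both classes. Their median log2 fold change was 0.85 in Sst and 0.068 in Vip nuclei. Over all genes tested the medians were -0.0044 in Sst and -0.0012 in Vip nuclei. A gene could enter the test in Sst nuclei through the Syn-Cre libraries alone, so the medians of the lists are a description. The per-nucleus ER sum had medians of 21.6, 19.9, 20.8 and 20.3 in Vip nuclei of the same 4 libraries and of 22.2, 20.5, 47.1 and 37.7 in Pvalb nuclei. Nuclei of other cell types were higher in Syn-Cre too, with medians of 21.3, 20.8, 24.3 and 23.5 in excitatory nuclei and of 25, 23.3, 39.0 and 30.3 in oligodendrocyte nuclei, which are not neurons. Derl3 had a UMI in 0.0961%, 0.164%, 12.4% and 2.58% of the oligodendrocyte nuclei (median depth 2747 to 3457.5 UMIs) and in 1.17%, 0.849%, 8.28% and 6.20% of the excitatory nuclei. The part of free RNA in the values of the Sst nuclei was not tested.

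**Figure D5:**
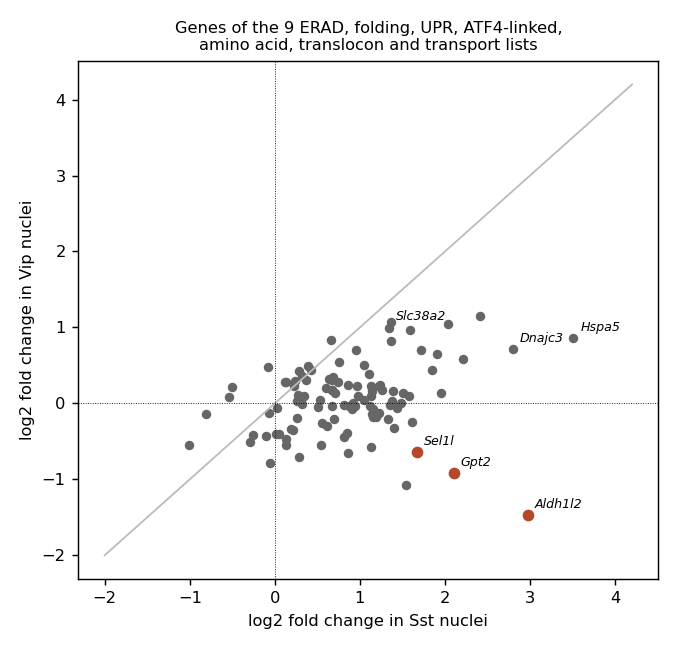
Log2 fold change (Sel1L Syn-Cre against Sel1L flox/flox) in Sst nuclei (horizontal axis) and in Vip nuclei (vertical axis) for 104 genes of 9 lists; the grey line marks equal values and red points had an edgeR adjusted p under 0.05 for the difference. Most points lie right of 0 and near 0 vertically, with Sel1l, Gpt2 and Aldh1l2 below 0 in Vip nuclei.

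Sst nuclei made up 4.06% and 4.17% of the Gad1/Gad2 nuclei in flox/flox and 4.81% and 6.58% in Syn-Cre, with 95% Wilson intervals of 2.96% to 5.55%, 2.77% to 6.23%, 3.33% to 6.91% and 4.81% to 8.94% that cover counting error only. Of all kept nuclei they were 0.299%, 0.261%, 0.335% and 0.512%. Both Syn-Cre shares were above both flox/flox shares, and the intervals of the 4 libraries overlapped among the Gad1/Gad2 nuclei. Nuclei with 10 or more Sst UMIs numbered 6 and 4 in flox/flox and 10 and 17 in Syn-Cre. The limit of 5 Sst UMIs makes the share depend on Sst RNA per nucleus as well as on the number of cells, and these cannot be told apart.

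Nuclei just below the limit of 5 Sst UMIs were also compared, in the same libraries. In the 66, 54, 36 and 29 nuclei with 2 to 4 Sst UMIs, none of them among the 123, 92 genes were higher and 56 lower in Syn-Cre (1.13% and 0.688% of those tested). All 36 genes that had risen in the Sst nuclei were tested there, all 36 were positive and 28 passed. Of 11 fallen genes tested there 5 passed, with all 11 negative. Dnajc3, Slc7a11, Hspa5 and Sel1l were among those that passed, with log2 fold changes of 2.52, 4.50, 2.16 and 1.64, and so was Derl3. Zfpm2 (-0.74, edgeR adjusted p = 0.164) and Cntnap5c (-0.65, edgeR adjusted p = 0.147) did not pass. The risen and fallen genes were chosen in these same libraries, so any difference between the libraries carries over. The counts of shared directions and calls are therefore a description and no independent repeat.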

How the data were processed

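Nuclei of the cortex and hippocampus were sorted and made into 10x Genomics 3′ v3 libraries. The authors processed the reads with Cell Ranger 6.1.0 on GRCm38, per the labels, and deposited raw UMI counts per gene and nucleus, not normalized; whether intronic reads were counted is not given in the sources used here. Of 32286 features, 32235 were found in GENCODE vM21 (GRCm38), which gave gene positions and opposite-strand overlaps. The members and gene lists were chosen with earlier results of these data known. Nuclei with over 600 genes and under 5% mitochondrial UMIs were kept (12362, 8436, 8065 and 7231 per library), from 122716599, 76589308, 75144161 and 73992811 UMIs. Doublets were scored with Scrublet and were left in the main comparison. Counts of the Sst nuclei were summed per library and compared with edgeR 4.0.16 (filterByExpr, TMM, quasi-likelihood F test, two-sided), with Benjamini-Hochberg values over all 6973 tested genes, including 3 genes of the rule that are not reported, a threshold of 0.05 and a prior count of 0.125. Standard errors were derived from each log2 change and its F value. The model was tested on simulated data. Interactions with Pvalb and Vip nuclei had library as a block. The unit of each level is said where it is printed. Named genes were the 10 with the smallest p and the 10 with the largest change in each direction among called genes with 20 or more UMIs whose groups did not overlap, up to 5 genes with the smallest p in each list, the defining genes of ERAD, the UPR and Sst cells, and the 5 with the smallest p in each direction of each interaction; other called genes that are named were chosen after their values were seen. The values of 1 called gene are not reported here. Sst nuclei were clustered in scanpy 1.11.5 (1000 variable genes, 10 components, 10 neighbours, resolution 0.8). The alternatives were DESeq2 1.42.0, other count filters, a prior count of 2, a replicate block, each library left out, thinning, stricter and looser Sst limits, and doublets or oligodendrocyte-rich nuclei left out.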

Additional observations from a re-analysis of the deposited data

Results flagged for a closer look

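Cre RNA was found in a library whose label gives no Cre: the Sst nuclei of Sel1L flox/flox replicate 1 held 17 UMIs, against 0 in replicate 2 and 11 in each Sel1L Syn-Cre library. Its part in the results was not tested, and the calls without this library are given with the results.

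A total of 16 genes had a log2 fold change (Syn-Cre against flox/flox) that differed between Sst and Vip nuclei by the edgeR interaction test, at an adjusted p under 0.05. The difference, Sst minus Vip, was 4.44 for Aldh1l2, 3.45 for Epb41, 3.0 for Gpt2, 2.91 for Cdh6, 2.87 for Plpp5, 2.44 for Scg2, 2.35 for Sel1l, 1.80 for Kcnk2, 1.69 for Kcnt2 and 1.53 for A830018L16Rik. It was -2.76 for Htr4, -2.46 for Prkd1, -1.92 for Dock10, -1.81 for Sez6l, -1.67 for Kirrel3 and -1.62 for 4930555F03Rik. Dock10 is one of the genes whose fall in Sst nuclei shrank when nuclei with oligodendrocyte RNA were left out. Sel1l, Gpt2, Cdh6, Epb41 and Aldh1l2 were below 0 in Vip nuclei, at -0.64, -0.92, -0.79, -2.02 and -1.48, and none of the 5 passed the edgeR test in Vip nuclei alone. With 2 libraries per genotype no group was large enough to look for single outlying libraries.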

How the results depend on the processing

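The 36 risen genes kept their direction under every alternative that tested them, and the 12 fallen genes did except for Mbp without doublets (0.17) and without oligodendrocyte-rich nuclei (0.23) and Gm32647 with Sst at 10 or more UMIs (0.64, log2 fold changes). The numbers of genes called higher and lower moved most. They were 16 and 21 with DESeq2, 150 and 136 with no filter beyond 1 UMI, 9 and 0 with doublets left out, 13 and 2 without oligodendrocyte-rich nuclei (chosen after seeing the data), 215 and 106 with 2 or more Sst UMIs and 92 and 56 with 2 to 4 (both chosen after seeing the data). With 10 or more Sst UMIs they were 0 and 0 in edgeR, with 2639 genes tested and 206 at an unadjusted p under 0.05. Leaving out 1 library in turn gave 58 to 135 higher and 52 to 117 lower, always more than with all 4, and 34 to 36 of the risen genes kept their call. The cause of these moves was not tested. For the difference from Vip nuclei, the 10 larger and 6 smaller became 0 and 0 with DESeq2 (99 genes at an unadjusted p under 0.05) and 18 and 20 with 10 UMIs in every pool, and 5 to 15 and 7 to 22 without 1 library. For Pvalb nuclei, leaving out 1 library gave 1 to 14 and 0 to 5. A fit with the replicate number as a block gave 82 higher and 42 lower, and all 48 genes kept their call; the labels share only a number, but by Xist RNA replicate 1 and replicate 2 differed in sex in both genotypes, so that the block is also one of sex, and the replicate differences of the 2 genotypes correlated by -0.0275 across 4797 genes. The share of Sst nuclei was higher in Syn-Cre by 0.143 percentage points of kept nuclei and by 1.58 points of Gad1/Gad2 nuclei. Thinning nuclei to 4000 UMIs before the rule left 4, 0, 2 and 9 nuclei, and the comparison could not be fitted. With 302820 to 594512 UMIs per pool, genes with few UMIs were not tested.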
